A study of Mus musculus with 14 samples.

Results

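The 10 genes described here are Atf4, the transcription factor gene at the end of the integrated stress response, and 9 genes commonly placed under its control: Phgdh, Psat1 and Psph of serine synthesis, Shmt2 and Mthfd2 of mitochondrial one-carbon metabolism, and Asns, Chac1, Trib3 and Ddit3. They were taken as a list of names, and their probes were found by RefSeq accession: 14 probes for 10 of the 15834 genes tested, with Atf4, Phgdh, Psat1 and Psph on 2 probes each. A filter on dim probes, which asked for a group in which each array detects the probe, kept 13 of the 14. The genes were chosen by their known roles and with their differences between these same groups already seen. Levels and differences of the 10 genes are therefore given as a description, with standard errors and no p-value.

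Macrophages were grown with M-CSF from the marrow of female C57BL/6 mice aged 8 weeks, and every mouse carried LysM-Double-Cre, a recombinase driven from the lysozyme locus of myeloid cells. Transgenic cells also carried a TFEB transgene, TFEB being a transcription factor of the MiT/TFE family that drives lysosomal and autophagy genes, and wild-type cells lacked it. Over the last 24 h the cells stood in plain DMEM (control) or in DMEM with medium conditioned by EO771 cells, a mouse mammary tumour line, plus lysate of the tumour (tumour material). One-colour Agilent arrays were hybridised for 3 wild-type control, 3 wild-type tumour, 3 transgenic control and 2 transgenic tumour replicates, 11 replicates on 14 arrays. Transgenic tumour replicate 1 is not analysed here. The labels call the replicates biological but do not say whether each is a separate animal, and the cells are a bulk population driven by a promoter that is shared with other myeloid cells.

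When amino acids run short or misfolded proteins collect in the endoplasmic reticulum, stress kinases phosphorylate the initiation factor eIF2. General translation then falls while the Atf4 message is translated more, so that much of the control of ATF4 is not visible in its mRNA. ATF4 protein, paired with C/EBP factors, binds composite elements near genes for amino acid synthesis, uptake and tRNA charging, and together with CHOP, the product of Ddit3, it can also drive genes of cell death. In macrophages the serine pathway supplies glycine for glutathione and carbon units for methylation and nucleotides.

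All values are log2 of the signal over the 75th percentile of the same array, so that 1 unit is a doubling and 0 is the level that 25% of spots exceed. Differences come from a model with the 4 groups and the slide, and can depart from the difference of group means, sometimes in sign. Slc1a4 in transgenic cells had a modelled rise of 4.05, with group means of 5.59 (tumour) and 1.93 (control). With tumour material Trib3 had a modelled genotype difference of 0.11, with means of 4.86 in transgenic and 5.16 in wild-type cells. Comparisons with transgenic tumour cells lean on the slide term, since all arrays of that group were on slide 2. Each array had 35.5% to 40.2% of its spots above background and 0 saturated. Arrays within a group correlated at 0.981 to 0.987 in wild-type control, 0.982 to 0.987 in wild-type tumour, 0.969 to 0.979 in transgenic control and 0.978 to 0.987 in transgenic tumour cells, and the 3 arrays in slide column 4, all transgenic, took the largest spatial correction in the scanner software (0.253 to 0.331 by its fit statistic, where the other arrays had 0.0964 to 0.126). Of 12 macrophage markers, 11 were above background on every array, among them Adgre1, Csf1r and Cd68. The exception was Lyz2, the lysozyme gene whose locus carries LysM-Cre: its 1 probe was above background on 4 of 8 wild-type and 0 of 6 transgenic arrays, with levels of -2.49 to -1.19 and -3.65 to -2.63. Epithelial markers, which EO771 cells could bring, were above background on all arrays of a group for 0 of 12 genes, and Epcam, Krt8, Krt18 and Cdh1 were below background on all 14 arrays.

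Tfeb itself has 1 probe, whose position relative to the transgene was not analysed here. In control medium its levels were 0.97, 0.80 and 0.87 in wild-type and 1.33, 1.35 and 0.84 in transgenic cells, a difference of 0.31 (SE 0.13, limma adjusted p = 0.164). With tumour material they were -0.73, -0.71 and -0.62 against -0.01 and -0.14, a difference of 0.69 (SE 0.16, adjusted p = 0.0264). That call was lost without any of 6 replicates: wild-type control 3, wild-type tumour 1, 2 or 3, and transgenic tumour 2 or 3. Wherever a result below is read as a transgene effect, it rests on the labels and on this small difference in Tfeb.

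Promoter sequence was available for all 10 genes, as 11 windows of 300 bases (250 before and 50 after the start) from RefSeq's GRCm38.p6. The core of the C/EBP-ATF response element, TGATGNAA on either strand, was found in 3 of the 11 windows and in 3.97% of 32851 promoters of the same length. The 3 were those of Asns, Chac1 and Trib3, whose windows are printed with the match in capitals, beside the window of Phgdh, the gene whose group means lay farthest apart, which held no match. Positions count from the start of transcription: the match begins at -23 in Asns, on the printed strand, at -193 in Chac1 and at 15 in Trib3, both on the opposite strand.
Asns (chr6:7693160-7693459, minus strand): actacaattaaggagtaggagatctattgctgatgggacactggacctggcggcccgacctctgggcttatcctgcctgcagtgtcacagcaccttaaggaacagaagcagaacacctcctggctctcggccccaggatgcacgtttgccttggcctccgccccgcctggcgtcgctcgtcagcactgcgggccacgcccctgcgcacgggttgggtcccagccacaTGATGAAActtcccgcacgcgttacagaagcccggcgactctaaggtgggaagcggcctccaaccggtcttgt
Chac1 (chr2:119350992-119351291, plus strand): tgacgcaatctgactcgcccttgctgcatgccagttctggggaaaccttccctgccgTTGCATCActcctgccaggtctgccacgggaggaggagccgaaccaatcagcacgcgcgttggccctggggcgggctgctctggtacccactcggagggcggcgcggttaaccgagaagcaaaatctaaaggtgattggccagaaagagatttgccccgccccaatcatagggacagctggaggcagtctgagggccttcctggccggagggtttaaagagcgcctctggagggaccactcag
Trib3 (chr2:152344011-152344310, minus strand): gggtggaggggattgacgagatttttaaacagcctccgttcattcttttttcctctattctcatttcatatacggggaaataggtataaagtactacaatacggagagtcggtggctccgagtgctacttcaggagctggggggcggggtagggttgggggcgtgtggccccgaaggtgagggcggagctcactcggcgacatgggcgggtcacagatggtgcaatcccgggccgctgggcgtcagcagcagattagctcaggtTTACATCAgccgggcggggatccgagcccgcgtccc
Phgdh (chr3:98339920-98340219, minus strand): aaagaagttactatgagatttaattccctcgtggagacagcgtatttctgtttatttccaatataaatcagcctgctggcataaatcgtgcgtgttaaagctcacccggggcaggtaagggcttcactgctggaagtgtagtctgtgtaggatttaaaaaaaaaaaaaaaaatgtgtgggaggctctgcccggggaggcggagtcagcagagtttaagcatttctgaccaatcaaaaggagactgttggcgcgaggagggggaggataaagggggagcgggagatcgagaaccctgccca
Other motifs searched were the cAMP response element TGACGTCA (1.79% of all promoters), the core of the MiT/TFE element TCACGTGA (0.974%) and the E-box CACGTG (7.15%), which overlaps the MiT/TFE core. None of the 3 was in any of the 11 windows. A match describes letters in the window, not binding, and a window without one says only that these letters are not in it.

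Phgdh, which encodes the enzyme that commits glycolytic carbon to serine, was highest in wild-type control and lowest in wild-type tumour cells. Its brighter probe read 4.09, 3.91 and 4.16 in the 3 wild-type control replicates and 0.80, 1.02 and 0.98 in the 3 wild-type tumour replicates. In transgenic cells it read 2.58, 2.69 and 2.89 in control medium and 2.58 and 2.32 with tumour material. The wild-type groups thus lay far apart, while the transgenic groups sat between them and touched at 2.58. Tumour material went with a log2 difference of -3.13 (SE 0.15, 8.78-fold lower) in wild-type cells and -0.31 (SE 0.20) in transgenic cells. The latter was -0.02 without transgenic tumour replicate 3, whose repeat arrays read 2.57 and 2.07, the lower one in slide column 4. Against wild-type cells, transgenic cells stood 2.56-fold lower in control medium (log2 difference -1.35, SE 0.16) and 2.78-fold higher with tumour material (1.47, SE 0.19), so the order of the genotypes turned over between media. The difference between the 2 responses was 2.83 (SE 0.25). A second Phgdh probe gave -3.01 and -0.18 for the responses, -1.37 and 1.46 for the genotypes and 2.83 (SE 0.20) for the difference between responses. Within slide 1 the wild-type response was -3.15 and the genotype difference in control medium -1.48. Slide 2 gave -3.1 and -1.09 for the same values, but with 1 array in each of these groups, and its wild-type arrays are repeats of replicate 3 from slide 1, so it is no separate check. Every transgenic tumour array was on slide 2, so the 1.47 and the 2.83 lean on the slide term. On the brighter probe they ran from 1.2 to 1.81 and from 2.27 to 3.1 over 23 other settings.

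Psat1 and Psph encode the other enzymes of serine synthesis, the aminotransferase and the phosphatase that follow Phgdh. Psat1 read 1.35, 1.39 and 1.03 in wild-type control and 0.35, 0.57 and 0.47 in wild-type tumour cells, a difference of -0.74 (SE 0.30) with no overlap of the replicates. Transgenic cells read -0.10, 1.17 and 1.62 in control medium and 0.97 and 1.02 with tumour material. Replicate 1 of the transgenic control cells lay far below the other replicates, and the transgenic response of 0.00 (SE 0.39) moved to -0.36 without that replicate and to 0.72 without replicate 3. The second Psat1 probe was dim, above background on 2 of 4 wild-type tumour and 2 of 3 transgenic control arrays, and gave -0.92 (SE 0.47) in wild-type and 0.42 (SE 0.61) in transgenic cells. Psph read 1.87, 1.99 and 1.52 in wild-type control cells and 1.10, 1.30 and 1.02 with tumour material, a difference of -0.62 (SE 0.16). In transgenic cells it read 1.21, 1.67 and 1.69, then 1.73 and 1.53, a difference of 0.06 (SE 0.21) with overlapping replicates. The other Psph probe was above background on all arrays of no group and was not tested. All 3 serine synthesis genes thus read lower with tumour material in wild-type cells, Phgdh by far the most. Of the 3, Phgdh and Psph were past the threshold used for all genes in wild-type cells and Psat1 was not, and in transgenic cells none was.

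Shmt2, which splits serine into glycine and a folate-bound carbon in mitochondria, and Mthfd2, which oxidises that carbon unit, were less even across replicates. Shmt2 read 1.49, 1.96 and 1.77 in wild-type control, 1.65, 1.09 and 1.58 in wild-type tumour, 2.73, 2.28 and 1.95 in transgenic control and 1.12 and 1.57 in transgenic tumour cells. The wild-type groups overlapped (difference -0.28, SE 0.21), the transgenic groups did not (-0.69, SE 0.28), and transgenic control replicate 1 was the highest of all. Mthfd2 read 1.5, 2.31 and 0.70 in wild-type control, 2.04, 1.63 and 1.82 in wild-type tumour, 0.62, 2.18 and 1.18 in transgenic control and 1.75 and 3.19 in transgenic tumour cells. Each of its 4 group comparisons overlapped, with differences of 0.51 (SE 0.48) and 1.44 (SE 0.62) for the wild-type and transgenic responses. The latter was 0.26 without transgenic tumour replicate 3 and 1.96 without replicate 2, so 1 replicate sets its size. The repeat arrays of replicate 3 read 2.78 and 3.6.

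Atf4 has 2 probes of very different brightness, with signals of 33700 to 58600 and of 192 to 577 before scaling. The brighter one read 8.58, 8.74 and 8.60 in wild-type control, 9.01, 8.89 and 8.95 in wild-type tumour, 8.32, 8.42 and 8.30 in transgenic control and 8.88 and 8.89 in transgenic tumour cells. In both genotypes the tumour groups lay above the control groups without overlap, by 0.31 (SE 0.09) in wild-type and 0.61 (SE 0.12) in transgenic cells. Under quantile normalization these differences shrank to 0.01 and 0.35. The dimmer probe read 1.52, 1.79 and 1.26 in wild-type control, 2.55, 2.38 and 2.26 in wild-type tumour, 0.89, 1.28 and 1.28 in transgenic control and 2.38 and 2.29 in transgenic tumour cells. Its differences were larger, 0.90 (SE 0.16) and 1.24 (SE 0.21), and quantile normalization left them at 0.86 and 1.20. Whether the very high signals of the brighter probe had a part in its smaller differences was not tested. Between genotypes the brighter probe differed by -0.27 (SE 0.09) in control medium and by 0.02 (SE 0.11) with tumour material.

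Asns, which makes asparagine, and Chac1, which degrades glutathione, were higher with tumour material in transgenic cells, with small differences in wild-type cells. Chac1 read 2.80, 2.87 and 3.11 in wild-type control cells and 3.04, 2.90 and 3.07 in wild-type tumour cells, which overlapped. Transgenic cells read 1.75, 1.96 and 1.96 in control medium and 4.08 and 3.91 with tumour material. Transgenic control replicates were thus the lowest of the 11 and transgenic tumour replicates the highest. The responses were 0.05 (SE 0.11) in wild-type and 1.96 (SE 0.14, 3.90-fold) in transgenic cells, and they differed by 1.91 (SE 0.18). Against wild-type cells, transgenic cells were 2.14-fold lower in control medium (-1.09, SE 0.12) and 1.76-fold higher with tumour material (0.81, SE 0.14). Asns had the same shape: 3.15, 3.30 and 3.19 in wild-type control, 3.58, 3.35 and 3.35 in wild-type tumour, 2.34, 2.77 and 2.26 in transgenic control and 3.83 and 3.79 in transgenic tumour cells. No 2 groups overlapped, and the order ran from transgenic control through wild-type control and wild-type tumour to transgenic tumour, though the wild-type groups were only 0.20 apart (SE 0.12). The transgenic response of Asns was 1.49 (SE 0.15, 2.81-fold), its genotype differences were -0.73 (SE 0.13) and 0.56 (SE 0.15), and its responses differed by 1.29 (SE 0.19).

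Trib3 and Ddit3 encode a pseudokinase that restrains ATF4 and the factor CHOP. Both were higher with tumour material in each genotype. Ddit3 read 4.01, 4.32 and 4.18 in wild-type control, 5.70, 5.67 and 5.66 in wild-type tumour, 3.84, 3.39 and 3.91 in transgenic control and 6.01 and 5.81 in transgenic tumour cells. The 5.81 is the mean of repeat arrays at 6.12 and 5.49. Tumour and control groups stood more than 1 unit apart, with responses of 1.5 (SE 0.16, 2.84-fold) and 2.13 (SE 0.21, 4.36-fold), and the genotypes differed by -0.47 (SE 0.17) in control medium and 0.16 (SE 0.21) with tumour material. Trib3 read 3.70, 3.71 and 3.76 in wild-type control, 5.73, 5.38 and 4.36 in wild-type tumour, 3.24, 1.53 and 2.22 in transgenic control and 4.85 and 4.87 in transgenic tumour cells. Its responses were 1.25 (SE 0.36) and 2.73 (SE 0.47, 6.66-fold), and its replicates were far apart in wild-type tumour and transgenic control cells. The genotype difference of Trib3 in control medium, -1.37 (SE 0.38), ran from -1.82 without transgenic control replicate 1 to -0.87 without replicate 2. The plot of levels shows all 10 genes replicate by replicate.

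**Figure D1:**
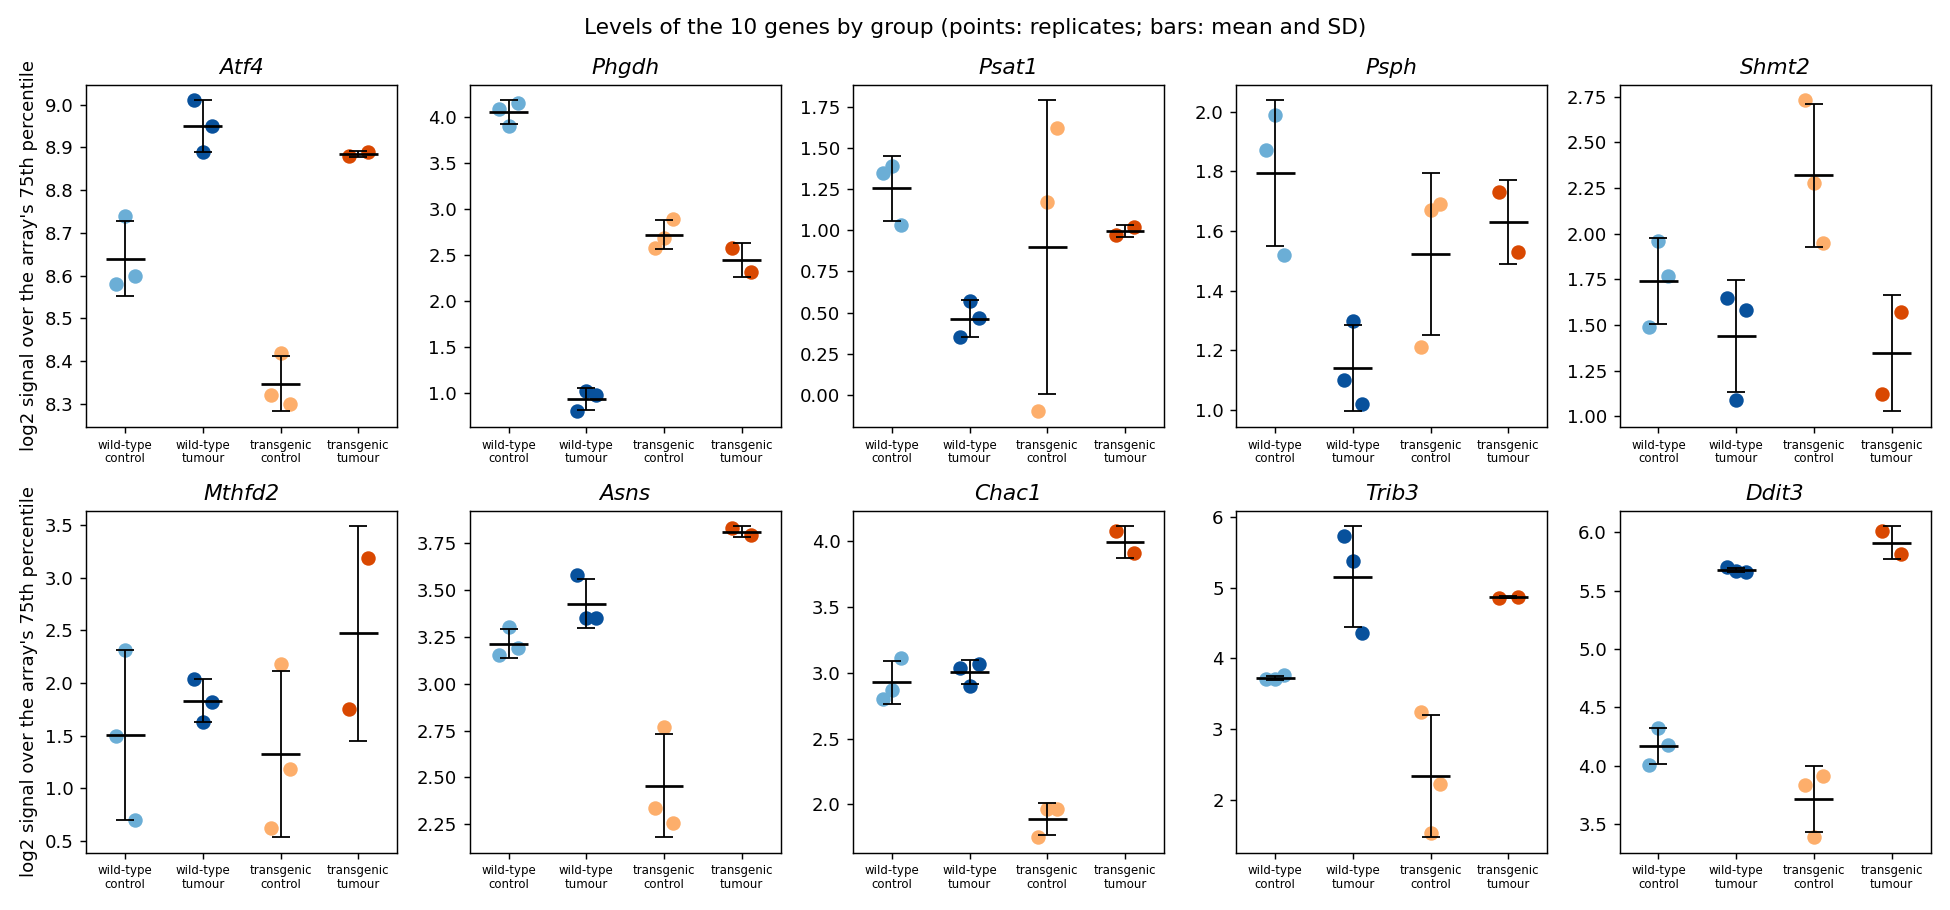
Level of each gene by group (vertical axis: log2 signal over the array's 75th percentile, own scale per panel; points: replicates, with repeat arrays averaged; bars: mean and SD). Phgdh falls from about 4 to about 1 in wild-type cells only, Asns and Chac1 are lowest in transgenic control and highest in transgenic tumour cells, and Ddit3 is higher with tumour material in both genotypes.

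Counted against the threshold used for all genes (limma, Benjamini-Hochberg adjusted p of 0.05), 5 of the 10 genes were past it in the wild-type response: Atf4, Trib3 and Ddit3 higher and Phgdh and Psph lower. Of all genes tested, 39.9% were past it there, 23.2% higher and 16.8% lower. Higher genes made up 58% of those calls, and 48.6% under quantile normalization. In the transgenic response 5 were past it, all higher (Atf4, Asns, Chac1, Trib3 and Ddit3), where 25.3% of all genes were, 15.1% higher and 10.2% lower. Between genotypes in control medium 4 were past it and lower (Phgdh, Asns, Chac1 and Trib3), against 8.83% of all genes, 3.59% higher and 5.24% lower. The Trib3 call held in 10 of 24 other settings and was lost without any 1 of 8 of the 11 replicates. With tumour material Phgdh and Chac1 were past it and higher, against 4.53% of all genes (1.97% higher, 2.56% lower). The responses differed past it for Phgdh, Asns and Chac1, all higher in transgenic cells, against 1.95% of all genes (1.02% and 0.928%). The Asns call was lost without wild-type tumour 3 or transgenic tumour 3 and with the first array of each replicate. Replicates of the 2 groups did not overlap for 7, 7, 6 and 6 of the 10 genes in the 4 group comparisons, in that order, and for 58%, 50.6%, 21.5% and 48% of all genes. Since the list was made with these differences in view, nothing is read from the shares. Without wild-type tumour replicate 1 or 3 the first count was 3, without wild-type control replicate 3 the control-medium count was 2, and without wild-type tumour replicate 3 the tumour-medium count was 1. The median difference of the 10 genes was 0.13 and 1.02 in the wild-type and transgenic responses (all genes 0.05 and 0.06), -0.39 and 0.45 between genotypes in control medium and with tumour material (all genes -0.03 and -0.01), and 0.84 for the difference between responses (all genes 0.02). These comparisons share groups: each control and tumour group enters several of them, so their values are given side by side and not correlated.

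**Figure D2:**
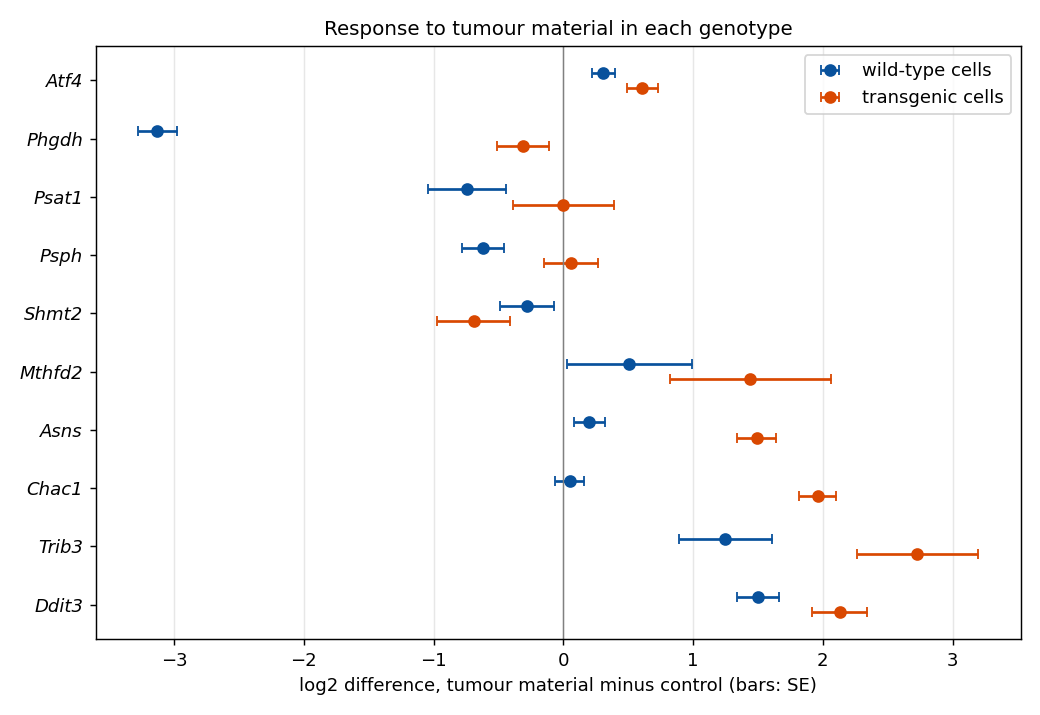
Log2 difference between tumour material and control for each gene (points; bars: SE), in wild-type and transgenic cells. Phgdh lies at -3.13 in wild-type and -0.31 in transgenic cells, and Chac1 at 0.05 and 1.96.

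**Figure D3:**
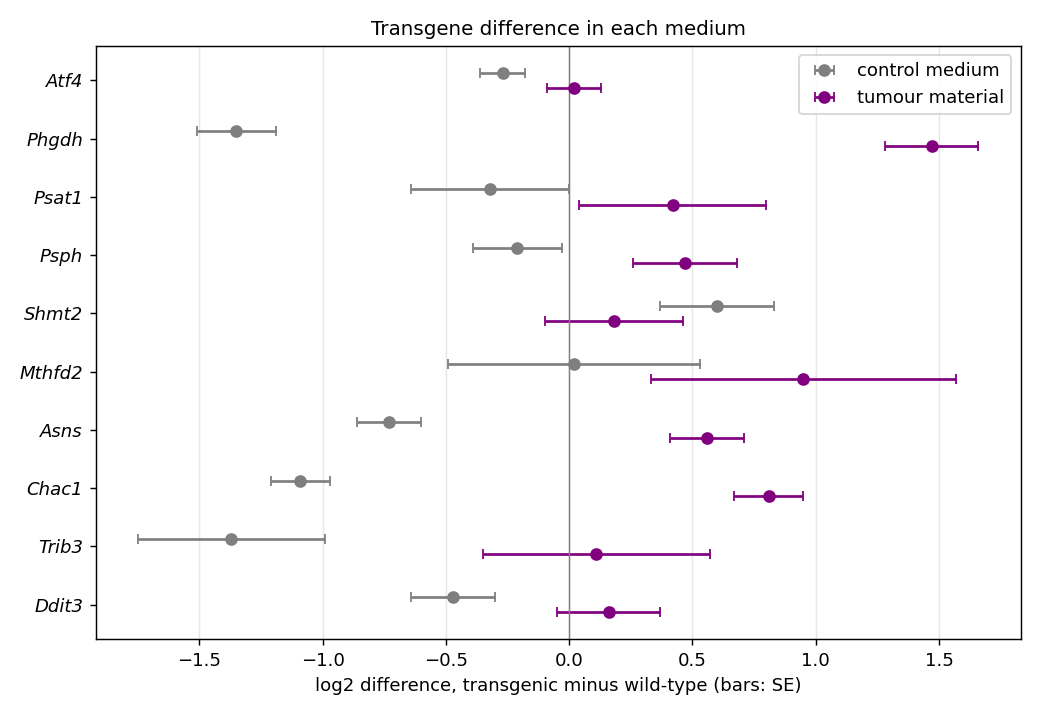
Log2 difference between transgenic and wild-type cells for each gene (points; bars: SE), in control medium and with tumour material. Phgdh, Asns and Chac1 lie below 0 in control medium and above 0 with tumour material, Phgdh at -1.35 and 1.47.

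Other cell types and dividing cells also differed between groups. Summed over each marker list on the linear scale (signal over the 75th percentile), 19 cell cycle genes gave 49.3 to 64.2 in wild-type control, 38.7 to 46.3 in wild-type tumour, 79.6 to 177 in transgenic control and 40.7 to 46.6 in transgenic tumour replicates. Neutrophil and granulocyte precursor markers, 11 genes, gave 241 to 260, 92.5 to 121, 182 to 591 and 58.5 to 69.4 in the same order. The fibroblast list of 8 genes gave 1.5 to 23.0, 33.3 to 43.6, 1.01 to 9.89 and 7.85 to 8.93, and the macrophage list 2220 to 2730, 2740 to 2970, 1850 to 2140 and 2390 to 2500. Mpo, a myeloperoxidase of granulocyte precursors, was 2.63 higher in transgenic than in wild-type control cells (SE 0.37, limma adjusted p = 0.00138). It fell by 5.62 with tumour material in transgenic cells (SE 0.46, adjusted p = 5.24e-06). Mmp8 of the same list went the other way, at -1.97 (SE 0.5, adjusted p = 0.0303) and 4.5 (SE 0.6, adjusted p = 0.000219). The former call held in 12 of 24 other settings. Transgenic control replicate 1 stood apart from replicates 2 and 3 on this list: Mpo read 5.85 against 3.88 and 4.22, and Ltf 6.17 against 2.53 and 3.56. Between genotypes in control medium 4 of the 11 were higher and 1 lower past the threshold, against 3.59% and 5.24% of all genes. In the transgenic response 1 rose and 10 fell, against 15.1% and 10.2%. The part of other cell types and dividing cells in the values of the 10 genes was not tested. In bulk RNA, fewer cells of a type and less RNA per cell cannot be told apart.

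Amino acid transporters, the uptake side of the pathway, were counted over a list of 9 tested genes. In wild-type cells 4 rose and 3 fell with tumour material, and in transgenic cells likewise 4 rose and 3 fell, with list medians of 0.08 and 0.89. Of all genes, 23.2% rose and 16.8% fell in wild-type cells, and 15.1% rose and 10.2% fell in transgenic cells. The transgenic count of 7 was 4 without transgenic control 3 or transgenic tumour 3. Slc1a4, which carries serine and alanine, read 3.80, 3.98 and 3.51 in wild-type control, 6.82, 6.83 and 6.14 in wild-type tumour, 2.17, 2.21 and 1.42 in transgenic control and 5.5 and 5.67 in transgenic tumour cells. It rose by 2.79 in wild-type (SE 0.15, limma adjusted p = 8.84e-08) and by 4.05 in transgenic macrophages (SE 0.20, adjusted p = 1.03e-07), and was lower in transgenic control cells by a log2 difference of -1.72 (SE 0.16, adjusted p = 0.000107). Slc1a5, a glutamine carrier, fell in both genotypes, by 1.84 (SE 0.14, adjusted p = 1.67e-06) and 1 (SE 0.19, adjusted p = 0.00219). Between genotypes in control medium 0 transporters were higher and 5 lower, where 3.59% and 5.24% of all genes were. Among the 5 were Slc7a11, the cystine carrier, at -1.95 (SE 0.23, adjusted p = 0.000397), and Slc6a9, a glycine carrier, at -1.90 (SE 0.46, adjusted p = 0.0245). Unadjusted limma p-values under 0.05 gave the same 0 and 5. The count of 5 fell to 2 without wild-type control replicate 3, and to 3 without wild-type control 1, transgenic control 2 or 3 or transgenic tumour 3, and the call of Slc6a9 was lost without any of these 5. With tumour material Slc7a11 stood at -1.80 (SE 0.28, adjusted p = 0.00319) as the only one of 9 past the threshold, against 4.53% of all genes. It was not past the threshold without wild-type tumour replicate 3 or transgenic tumour replicate 3. That count of 1 was 3 without transgenic control 1 and 2 without transgenic control 2 or transgenic tumour 2. Over all genes the tumour-medium count also rose without transgenic control 1, from 717 to 2060.

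Aminoacyl-tRNA synthetases, which load tRNAs with their amino acids, were counted over 11 tested genes. In the wild-type response 3 rose and 1 fell, where 23.2% and 16.8% of all genes did, and 5 rose and 0 fell in the transgenic response (also 5 and 0 at an unadjusted limma p under 0.05), where 15.1% and 10.2% of all genes did. The seryl enzyme Sars read 5.26, 5.12 and 5.12 in transgenic control and 5.90 and 5.98 in transgenic tumour cells, a rise of 0.86 (SE 0.13, adjusted p = 0.000472). In wild-type cells Sars read 5.61, 5.72 and 5.49 in control medium and 5.89, 5.83 and 5.81 with tumour material. The alanyl enzyme Aars rose by 1.49 in transgenic cells (SE 0.44, adjusted p = 0.0276), a call that was lost without transgenic control 3 or either transgenic tumour replicate. In wild-type cells Aars rose by 1.28 (SE 0.34, adjusted p = 0.0101), lost without wild-type control 3 and within slide 1 alone. Its wild-type replicates read 3.78, 3.97 and 3.62 in control medium and 4.66, 6.43 and 4.48 with tumour material. Vars, for valine, fell by 0.56 in wild-type cells (SE 0.10, adjusted p = 0.00117). In transgenic cells Vars read 3.18, 3.01 and 2.70 in control medium and 2.54 and 2.58 with tumour material. The transgenic count was 3 without transgenic control replicate 3 or transgenic tumour replicate 3, and the wild-type count of 4 was 2 without wild-type control replicate 3.

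Folate and serine-glycine enzymes outside the 10 genes gave 7 rises and 3 falls among 14 tested in wild-type cells, and 3 rises and 2 falls in transgenic cells. All genes gave 23.2% rises and 16.8% falls in wild-type cells, and 15.1% and 10.2% in transgenic cells. Aldh1l1, a cytosolic enzyme that oxidises formyl-folate, shared the wild-type fall and the tumour-medium difference of Phgdh, but was not lower in transgenic control cells: it read 3.12, 3.09 and 3.1 in wild-type control, 0.96, 0.98 and 0.67 in wild-type tumour, 2.97, 3.64 and 3.45 in transgenic control and 2.87 and 2.81 in transgenic tumour cells. It fell by 2.28 in wild-type cells (SE 0.14, limma adjusted p = 2.96e-07), was 2.05 higher in transgenic than in wild-type tumour cells (SE 0.18, adjusted p = 0.000117), and its responses differed by 1.80 (SE 0.23, adjusted p = 0.00256). The last call was lost without wild-type tumour 3 or transgenic tumour 3. Tyms, the thymidylate synthase, rose by 3.21 (SE 0.18, adjusted p = 1.13e-07) and 2.64 (SE 0.23, adjusted p = 9.66e-06), and Mthfd2l, a relative of Mthfd2, rose by 1.56 (SE 0.14, adjusted p = 4.7e-06) and 1.18 (SE 0.18, adjusted p = 0.000599). The wild-type count of 10 was 6 without wild-type control 3 and 4 without wild-type tumour 3.

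Of 17 other ATF4 targets, 7 rose and 5 fell in wild-type cells and 7 rose and 1 fell in transgenic cells, with medians of 0.61 and 0.81. Among all genes 23.2% rose and 16.8% fell in wild-type cells, and 15.1% and 10.2% in transgenic cells. Nupr1, a stress-induced chromatin protein, rose by 1.75 (SE 0.33, limma adjusted p = 0.00129) and 2.51 (SE 0.43, adjusted p = 0.00121). Ddit4, an inhibitor of mTORC1, rose by 1.81 in wild-type cells (SE 0.24, adjusted p = 0.000114), and Ppp1r15a, which recruits the eIF2 phosphatase, by 0.96 (SE 0.14, adjusted p = 0.000234). Cebpb, a partner of ATF4, rose by 1.24 in transgenic cells (SE 0.19, adjusted p = 0.000512). Pck2, a mitochondrial gluconeogenic enzyme, was not well above background in wild-type tumour cells and was at least 1.80-fold lower there than in control cells (adjusted p = 0.000157) and at least 1.66-fold lower than in transgenic tumour cells (adjusted p = 0.0152). Such bounds set the bright group against the dimmest signal well above background on each array. The Pck2 bounds belong to the main processing, and transgenic tumour cells were above background on 2 of 3 arrays. Both Pck2 calls were lost with normexp background correction. Over the other settings the log2 differences ran from -1.70 to -0.18 in the wild-type response and from 0.12 to 1.39 between genotypes. The Pck2 call between genotypes held in 16 of 23 other settings and was lost without wild-type tumour 3 or transgenic tumour 3. Between genotypes 0 of the 17 passed in control medium and 1 with tumour material, against 8.83% and 4.53% of all genes. Unadjusted limma p-values under 0.05 numbered 1 higher and 5 lower, and 6 higher and 2 lower. Without transgenic control replicate 1 the control-medium count was 9 and the tumour-medium count 5, and 7 responses differed instead of 0 (6 at an unadjusted limma p under 0.05). Over all genes the same counts also rose there, from 1398, 717 and 308 to 2708, 2060 and 1197. Without transgenic control 2 or 3 the tumour-medium count of the list was 3 or 2, and without wild-type tumour 3 or transgenic tumour 3 it was 0. The transgenic count of 8 was 4 without transgenic control 3 or transgenic tumour 3.

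Upstream of ATF4, 14 genes of the eIF2 kinases and the eIF2 pathway gave 7 rises and 1 fall in wild-type cells and 3 rises and 0 falls in transgenic cells. In the latter, unadjusted limma p-values under 0.05 gave 6 and 1. For each list in this paragraph the shares of all genes were 23.2% rises and 16.8% falls in wild-type cells. In transgenic cells they were 15.1% and 10.2%. Eif2ak2, the kinase PKR, rose by 1.27 (SE 0.16, adjusted p = 6.39e-05) and 0.89 (SE 0.21, adjusted p = 0.0082), the latter lost without transgenic control 3. Eif2ak3, the endoplasmic reticulum kinase PERK, fell by 1.07 in wild-type cells (SE 0.31, adjusted p = 0.0173), a call lost without wild-type control 3 or wild-type tumour 3. In transgenic cells Eif2ak3 read 0.11, 1.45 and 0.48 in control medium and -0.99 and -0.15 with tumour material. The wild-type count of 8 fell to 3 without wild-type tumour 3 and to 5 without wild-type control 3, wild-type tumour 1 or transgenic tumour 3. The transgenic count of 3 rose to 6 without transgenic control 1, where that of all genes rose from 4000 to 5283. Between genotypes 0 of 14 passed in either medium, against 8.83% of all genes in control medium and 4.53% with tumour material. Unadjusted counts were 2 higher and 1 lower in control medium and 0 and 0 with tumour material. Without transgenic control 3 the control-medium count was 3. Endoplasmic reticulum chaperones and genes of the unfolded protein response, 19 genes, gave 3 rises and 5 falls in wild-type and 1 rise and 3 falls in transgenic cells. Pdia4, a disulphide isomerase, rose by 1.22 (SE 0.14, adjusted p = 3.62e-05) and 1.97 (SE 0.18, adjusted p = 1.51e-05), and the sensor Atf6 fell by 1.32 (SE 0.15, adjusted p = 2.8e-05) and 1.57 (SE 0.19, adjusted p = 0.000123). The wild-type count of 8 was 5 without wild-type tumour 3, and the transgenic count of 4 was 2 without transgenic tumour 3. Among 7 MiT/TFE factors and other regulators, Tfec rose by 1.83 (SE 0.13, adjusted p = 9.24e-07) and 2.47 (SE 0.17, adjusted p = 1.7e-06), and Tfeb fell by 1.55 (SE 0.12, adjusted p = 1.67e-06) and 1.16 (SE 0.16, adjusted p = 0.000232). Cell cycle genes, 17 tested, gave 0 rises and 10 falls in wild-type cells and 0 and 15 in transgenic cells. In transgenic control cells 13 were higher and 0 lower than in wild-type control cells, where 3.59% and 5.24% of all genes were. Unadjusted limma p-values under 0.05 gave 0 and 11, 0 and 16, and 14 and 0. The wild-type count of falls was 4 to 6 without wild-type control 1 or 2, wild-type tumour 3 or transgenic tumour 3.

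**Figure D4:**
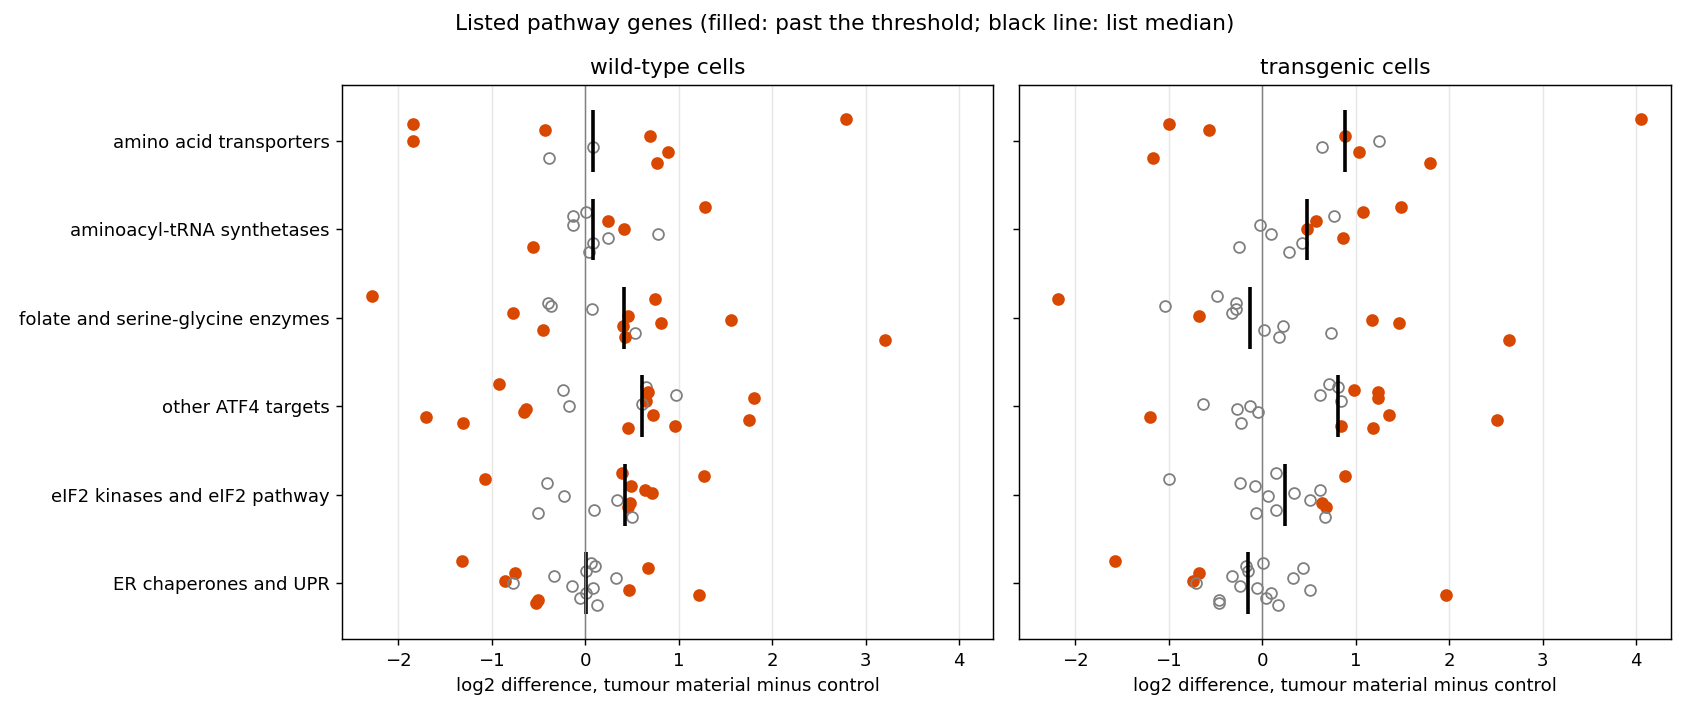
Log2 difference between tumour material and control for each listed gene (points; filled: past the threshold; black line: list median), in wild-type and transgenic cells on a shared axis. The median of the transporters is 0.08 in wild-type and 0.89 in transgenic cells, and the gene farthest to the right is Slc1a4 at 4.05 in transgenic cells.

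For 7 of the 10 genes the 2 genes with the most similar profile over the 11 replicates were looked up, as a Pearson correlation of slide-adjusted replicate means among all genes with a symbol. Phgdh was nearest to Gm8096, which RefSeq lists as a transcribed pseudogene (0.989), and to Lsr, a lipoprotein receptor gene (0.970), whose group means were 3.42, 0.51, 2.37 and 2.11 in wild-type control, wild-type tumour, transgenic control and transgenic tumour cells. Asns was nearest to Pkdcc (0.981), at 4.66, 5.19, 3.79 and 6.21, and to Chp1 (0.962). Chac1 was nearest to Atp6v0c, a subunit of the proton pump of lysosomes (0.963), at 9.54, 9.65, 9.29 and 9.95, and to Tnfrsf26 (0.962). The pair for Ddit3 was Chac2, which like Chac1 degrades glutathione (0.995), at 0.67, 1.44, 0.46 and 1.36, and 1300002E11Rik (0.990). Atf4 had Lilr4b (0.988) and Plekhg3 (0.983), Psat1 had Pgghg and Cux1 (both 0.948), and Mthfd2 had Psmc3 (0.916) and Slc25a32, the mitochondrial folate carrier (0.914). The points share 4 group means, and the best of many genes was taken each time, so these are descriptions.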

How the data were processed

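Bone marrow macrophages were profiled on one-colour Agilent 8x60K mouse arrays from 200 ng of RNA each, per the labels' protocols, and scans were read with Agilent Feature Extraction 10.7.3.1, per the submitters' processing notes. The deposited scanner files hold 1 processed signal intensity per spot, background-subtracted and spatially detrended per the file headers. The deposited series matrix holds log2 values with the same median (2.84) and quantiles on all arrays, rising with the scanner signals; how the zero of its scale was set is unknown, and it served as an alternative.

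Control spots and spots that the scanner software marked as non-uniform or as outliers (166 to 270 per array) were left out, spots of a probe were averaged, and log2 signals were scaled to each array's 75th percentile (83.9 to 144 in signal). Accessions were matched to RefSeq (GRCm38.p6 table): 28331 of 55681 probes received 1 symbol. Probes detected above background by each array of some group were kept (20208), and the brightest stood for its gene. In limma 3.58.1 (R 4.3.3) a model of 4 groups and slide was fitted to 14 arrays, repeat arrays sharing a random effect (correlation 0.072, 9 residual and 2.6 prior degrees of freedom) and Benjamini-Hochberg adjustment over 15834 genes. The model was run on simulated data with independent errors and no slide or genotype effects. Only the wild-type response was scored there, so the genotype comparisons were not checked. Titles ending in -2 were read as repeat arrays. Equal replicate numbers were not taken as pairs, since the labels do not say that they share an animal. Same-numbered deviations correlated at -0.50 to 0.11 between the groups other than transgenic tumour. This cannot settle pairing, because differently numbered replicates were not set beside them.

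The 10 genes, the pathway lists and the marker lists were chosen with earlier results of these data known. Named pathway genes are drawn from up to 3 per list, comparison and direction past the threshold with the largest differences, with Tfeb added, and the most similar genes are the 2 with the highest correlation for 7 of the 10 genes. Listed genes with no probe matched by accession were not used, and 1 named gene is not reported here. No array column was left without a sample. Group sizes of 2 or 3 limit the precision of every value. Alternatives covered scaling, background correction, the deposited matrix, dim probes, probe choice, slides, repeat arrays, the replicate number and leaving out each replicate; normexp correction used median signals because no mean signal is in the files.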

Additional observations from a re-analysis of the deposited data

Results flagged for a closer look

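The response to tumour material differed between the genotypes for 3 of the 10 genes, by the difference between both responses in the same fit. It stood at 2.83 for Phgdh on each of its 2 probes, 1.91 for Chac1 and 1.29 for Asns on the log2 scale. These genes were chosen with such values in view, so the differences are descriptions. Over 23 other settings they ran from 2.27 to 3.1 for Phgdh, 1.54 to 2.05 for Chac1 and 1.13 to 1.38 for Asns. They were past the threshold in 22, 22 and 19 of the 23. Slide 2 alone, with 1 array in 3 of its 4 groups, passed for none of these genes, and Asns was also not past the threshold with the first array of each replicate and without wild-type tumour 3 or transgenic tumour 3.

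Among the genes named from the pathway and marker lists, the limma test of the difference between responses passed for the transporters Slc6a9 (3.09) and Slc1a4 (1.27), the folate enzymes Aldh1l1 (1.80) and Mthfd1l (-1.13), and the MiT/TFE factor Mitf (0.76). It also passed for the cell cycle genes Pbk (-4.87), Birc5 (-3.16) and Ccnb2 (-3.14). Lum (-4.48), a matrix proteoglycan of fibroblasts, passed as well, with rises of 7.07 in wild-type and 2.59 in transgenic cells. Those rises start from control levels not well above background. Each of these calls but that of Lum was lost without at least 1 replicate, most often transgenic tumour 3 or wild-type tumour 3. They were unequally firm. Of 23 other settings, the call held in 9 for Slc6a9, 10 for Mthfd1l, 13 for Slc1a4 and 17 for Mitf. It held in 19 for Aldh1l1 and for Pbk, 20 for Ccnb2, 21 for Birc5 and 22 for Lum. No group holds the 4 replicates that a check for single far-off replicates needs.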

How the results depend on the processing

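The number of arrays, 14 on 2 slides with 2 or 3 replicates a group, limits the precision. No difference of the 10 genes that was past the threshold changed sign under any setting run. Of the differences of their 13 kept probes under other settings, 1305 of 1456 moved by less than the residual SD of the gene's brightest probe in the main fit. The setting with the median of kept probes is not among them. Counts past the threshold were 6320, 4000, 1398, 717 and 308 of all genes for the wild-type response, the transgenic response, the genotypes in control medium, the genotypes with tumour material and the difference between responses, and 62, 50, 25, 7 and 16 of 108 listed pathway genes. Within slide 2 alone, which holds 6 arrays, 1 in each group but transgenic tumour, the first 2 counts were 771 and 1771 (9 listed genes in the wild-type response), and the other three were 0 for all and for listed genes. Without a filter on dim probes the control-medium count was 913 and that between responses 185 (7 listed). With slide column 4 as a term the last 3 counts were 634, 449 and 199 (3 and 10 listed for the last 2). With the first array of each replicate the last 2 were 215 and 131 (2 and 4 listed). Without the slide term the tumour-medium count was 1114. Without the arrays of slide column 4, a setting chosen after seeing the data, the last 2 were 1582 and 826 (13 and 25 listed). Leaving out single replicates gave 4017 to 7956, 2317 to 5283, 422 to 2708, 130 to 2060 and 43 to 1197, and for listed genes 35 to 73, 35 to 65, 11 to 43, 1 to 23 and 1 to 28. The top of each of these ranges came without transgenic control replicate 1. The replicate block gave 6161, 3673, 1121, 533 and 276 (59, 49, 22, 6 and 16 listed); the numbers are not taken to pair the samples. Quantile normalization and the deposited matrix turned the wild-type balance of all genes from 3667 higher and 2653 lower to 3077 and 3251, and 3082 and 3243. They each lowered the share of rises among listed genes called in the wild-type response from 51.6% to 37.5%, and normexp correction lowered that between genotypes with tumour material from 57.1% to 33.3%. Atf4 was then past the threshold in neither response on its brighter probe under quantile normalization. Differences reversed for Itgam with the median of kept probes (-0.41 in the wild-type response, 0.19 between genotypes with tumour material) and for Tfeb in control medium without the arrays of slide column 4 (-0.01). The cause of these changes was not tested. Slide 1 holds no transgenic tumour array and gave no value for the comparisons that need one.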
